A study of Homo sapiens with 6 samples.

Results

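The collagen chain genes were taken as the rows of the expression table annotated with exactly 1 gene symbol of the form COL, number, A, number, with 1 row per symbol, the one with the highest mean over the 6 arrays. This gave 43 genes among 18417 symbols (19460 rows with 1 symbol). COL17A1 had no such row and was not analysed here. The arrays came from neural stem cells (NSCs) at passage 14, obtained from SA-01, a human line of embryonic stem cells, in 3 independent cultures. A sample of each culture was given DMSO, the solvent, at 0.1%, and another sample 100 µM of X5050, a compound that the series title calls an inhibitor of REST, a repressor of neuronal genes. Cells were plated on polyornithine and laminin in Neurobasal and DMEM/F-12 with N-2 and B-27 supplements. Treatment began 5 h later and lasted 24 h. Each treatment has 3 arrays, 1 per culture, and all come from a single embryonic stem cell line. An X5050 and a DMSO array with the same replicate number were read as the same culture, called culture 1, 2 or 3.

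Collagens are secreted or membrane proteins whose chains wind around each other into a rope-like helix. Fibrillar collagens form the tension-bearing fibres of connective tissue, type IV collagen builds the sheet of the basement membrane, and FACIT collagens sit on the surface of fibrils. A chain folds only with its proper partners, so that COL1A1 and COL1A2, or COL4A1 and COL4A2, supply the same molecule. In the brain, fibrillar collagens come largely from the meninges and vessel walls, and the basement membrane is a layer that neural progenitors contact during development.

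For 6 of the 43 collagen genes the signal differed between cultures (limma F test of the replicate number beside treatment, adjusted p under 0.05). They were COL12A1, COL6A3, COL4A1, COL1A2, COL3A1 and COL14A1. That is 14.0% of the collagen genes, beside 2.93% of all rows tested. In 5 of these 6 both arrays of culture 1 lay above the other 4, and COL14A1 was instead low in culture 3. With culture 1 left out only COL14A1 passed (1.36% of all rows). COL1A2 and COL3A1 no longer passed without culture 2, where COL1A1 did and 3.54% of all rows passed, and COL14A1 no longer passed without culture 3 (1.64%). No collagen gene passed the test of X5050 against DMSO, either without pairing (0% of all rows passed) or with each X5050 array set against the DMSO array of its own culture (0.498% of all rows passed). COL11A1, with a lower signal under X5050 in each culture, had the smallest adjusted p of the 43 in the paired limma fit, 0.0964.

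Promoter windows from RefSeq (GRCh38.p14, 250 bases before to 50 after each annotated start) matched 31 of the 43 genes. The windows of COL6A3 (chr2:237414115-237414414, minus strand), COL12A1 (chr6:75206004-75206303, minus strand) and COL4A1 (chr13:110307108-110307407, minus strand) are shown because these genes were high together in culture 1. That of COL4A2 (chr13:110307034-110307333, plus strand) is shown because it holds 226 bases of the COL4A1 window, read from the opposite strand. The window of COL11A1 (chr1:103108473-103108772, minus strand) belongs to the gene with the smallest paired p for X5050. Each runs 5′ to 3′ along its gene, and capitals mark matches on either strand to the TATA box TATAAA, the CCAAT box CCAAT, the GC box GGGCGG, the AP-1 motif TGANTCA or the TEAD motif GGAATG, none of which contains another.
COL6A3: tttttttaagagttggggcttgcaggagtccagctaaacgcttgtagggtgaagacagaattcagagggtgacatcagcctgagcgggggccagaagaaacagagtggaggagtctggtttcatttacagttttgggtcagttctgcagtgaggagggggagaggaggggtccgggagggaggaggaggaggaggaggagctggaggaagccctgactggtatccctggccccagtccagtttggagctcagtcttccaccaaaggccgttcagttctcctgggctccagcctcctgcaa
COL12A1: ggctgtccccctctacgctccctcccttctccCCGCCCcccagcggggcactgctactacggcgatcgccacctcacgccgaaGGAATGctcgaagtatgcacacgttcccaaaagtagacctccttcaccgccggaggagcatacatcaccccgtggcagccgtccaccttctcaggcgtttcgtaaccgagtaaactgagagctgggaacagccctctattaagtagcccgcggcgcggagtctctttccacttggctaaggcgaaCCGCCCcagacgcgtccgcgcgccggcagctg
COL4A1: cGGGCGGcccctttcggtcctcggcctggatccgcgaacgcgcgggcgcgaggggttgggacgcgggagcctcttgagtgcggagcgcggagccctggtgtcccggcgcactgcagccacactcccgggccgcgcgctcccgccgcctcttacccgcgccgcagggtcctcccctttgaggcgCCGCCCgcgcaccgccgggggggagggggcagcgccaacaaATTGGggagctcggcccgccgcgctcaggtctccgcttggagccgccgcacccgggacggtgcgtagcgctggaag
COL4A2: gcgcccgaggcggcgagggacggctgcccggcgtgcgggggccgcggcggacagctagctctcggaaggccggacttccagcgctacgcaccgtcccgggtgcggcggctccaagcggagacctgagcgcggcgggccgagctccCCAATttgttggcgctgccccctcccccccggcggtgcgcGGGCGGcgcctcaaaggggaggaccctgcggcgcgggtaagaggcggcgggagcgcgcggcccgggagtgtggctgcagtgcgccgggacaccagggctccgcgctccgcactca
COL11A1: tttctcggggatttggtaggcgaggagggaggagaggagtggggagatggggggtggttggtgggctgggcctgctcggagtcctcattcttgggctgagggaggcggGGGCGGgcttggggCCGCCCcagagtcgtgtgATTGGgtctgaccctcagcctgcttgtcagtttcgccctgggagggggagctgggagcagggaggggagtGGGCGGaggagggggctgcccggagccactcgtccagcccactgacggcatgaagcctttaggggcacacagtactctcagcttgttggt

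The window of COL6A3 held none of these letters, and that of COL12A1 held 1 TEAD match and 2 GC boxes. COL4A1 and COL4A2 share 1 CCAAT box and 1 GC box, which lie in the stretch common to both windows, and COL4A1 has another GC box in its own part. COL11A1 had 1 CCAAT box and 3 GC boxes. Over all 35116 windows of the table the CCAAT box occurred in 34.6%, the GC box in 45%, the TATA box in 11.5%, the AP-1 motif in 7.71% and the TEAD motif in 14%. Over the 43 windows of the matched collagen genes, some of which have several starts, the shares were 30.2%, 55.8%, 16.3%, 2.33% and 6.98% in that order. Other type IV pairs are arranged in the same way, and the windows of COL4A3 and COL4A4 overlap by 82 bases and those of COL4A5 and COL4A6 by 121.

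All values below are log2 signals, and all changes are differences between log2 signals. A signal is that of 1 probe set, whose brightness depends on its probes as well as on the transcript, so that levels of different genes are not ranked against each other. The mean DMSO signals of the 43 genes ran from 3.48 to 7.69. In every DMSO array 3 genes (COL6A5, COL6A6 and COL8A1) lay below the lower quartile of all rows and 25 above the median, and 0 of the 43 lay above the upper quartile in every one. The table holds no detection measure, so no gene was called absent. The 3 DMSO arrays spanned a median of 0.29 per collagen gene, from 0.038 (COL21A1) to 3.64 (COL12A1), beside a median of 0.25 over all rows. They spanned more than 0.5 for 12 of the 43 genes (27.9%), beside 14.0% of all rows.

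**Figure D1:**
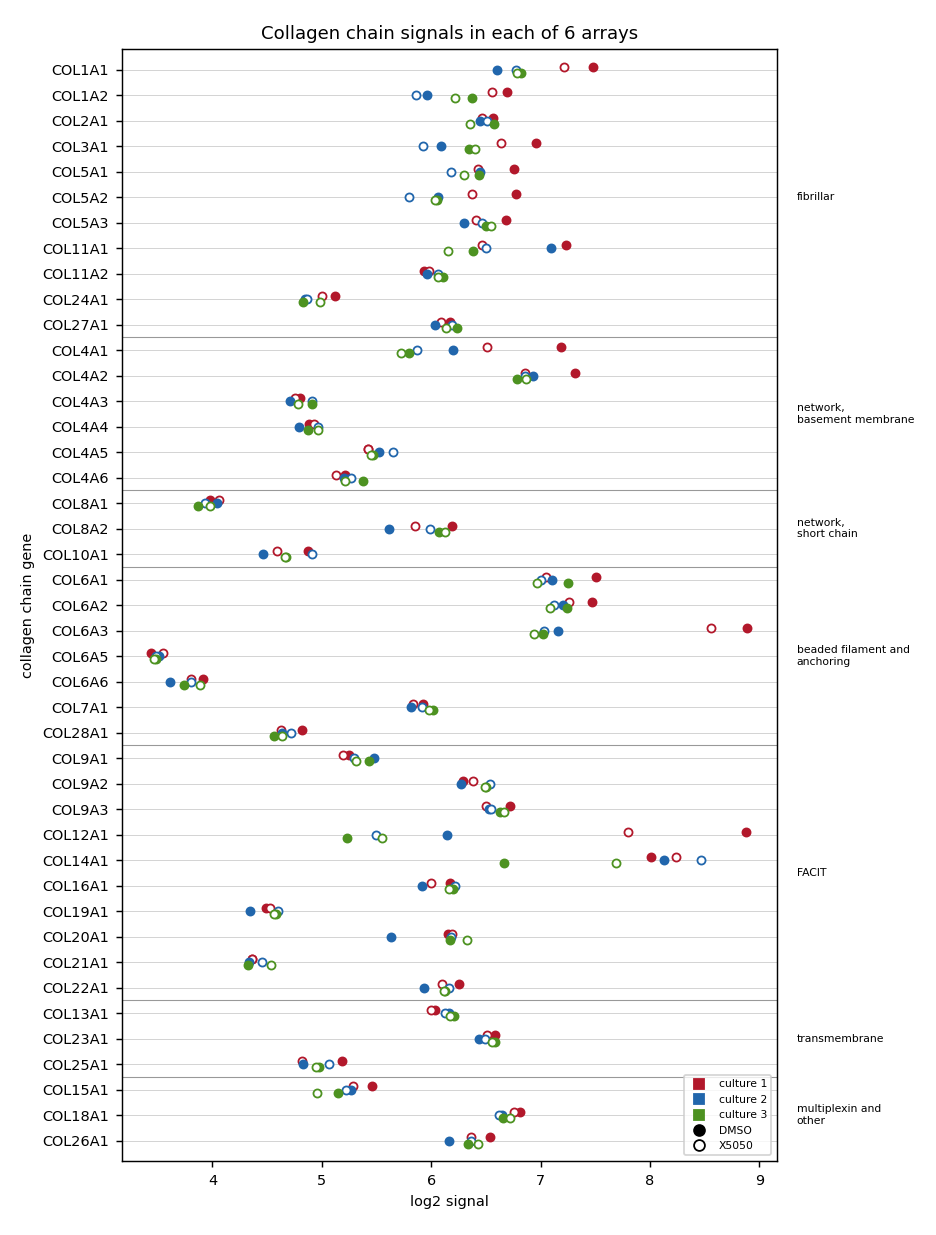
Log2 signal (x axis) of the 43 collagen chain genes (y axis, by structural class) in each of the 6 arrays, with colour for the culture, filled points for DMSO and open points for X5050. Both culture 1 points of COL12A1 and COL6A3 lie apart from the other 4 arrays, and COL14A1 has its lowest points in culture 3.

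COL12A1 encodes the chain of type XII collagen, a FACIT collagen that links fibrils to the matrix around them. Its signals were 8.88, 6.14 and 5.23 with DMSO in cultures 1, 2 and 3, and 7.80, 5.50 and 5.55 with X5050. Both arrays of culture 1 were high, and cultures 2 and 3 overlapped. Culture 1 exceeded culture 2 by 2.52 (SE 0.27, 5.72-fold) and culture 3 by 2.94 (SE 0.27, 7.69-fold), with an adjusted p of 0.00273 for the culture term in limma (2 arrays per culture).

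COL6A3 encodes the largest chain of type VI collagen, the beaded filament around cells. It read 8.89, 7.16 and 7.02 with DMSO and 8.55, 7.03 and 6.94 with X5050, so that culture 1 stood apart under both treatments. The excess of culture 1 was 1.62 over culture 2 (SE 0.12, 3.08-fold) and 1.74 over culture 3 (3.34-fold), with adjusted p = 0.00124 for the culture term in limma. Its partner chain COL6A1 was 0.23 higher in culture 1 than in culture 2 (SE 0.12) and 0.17 higher than in culture 3. COL6A2, the other partner, had both culture 1 arrays above the other 4 too, by less, and was 0.20 higher there than in culture 2 (SE 0.11) and 0.20 higher than in culture 3. Neither partner passed the culture test (adjusted p = 0.576 and 0.520 in limma), and whether they differ from COL6A3 in this respect was not tested. COL6A5, COL6A6, the anchoring fibril chain COL7A1 and COL28A1, placed in the same class, had differences of culture 1 from the other cultures between -0.12 and 0.15.

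COL4A1, a chain of the widespread basement membrane collagen, read 7.19, 6.20 and 5.79 with DMSO and 6.51, 5.87 and 5.73 with X5050. Both culture 1 arrays lay above all others. Culture 1 exceeded culture 2 by 0.81 (SE 0.15, 1.76-fold) and culture 3 by 1.09 (2.12-fold), with adjusted p = 0.0163 for the culture term in limma. COL4A2, its head-to-head neighbour with most of the promoter window shown above in common, read 7.31, 6.93 and 6.78 with DMSO and 6.85, 6.85 and 6.87 with X5050. Only the DMSO array of culture 1 was apart, and the 3 X5050 arrays were nearly equal. The culture term of COL4A2 had adjusted p = 0.593 in limma, and the difference between the patterns of the neighbours was not tested. The other type IV chains, COL4A3, COL4A4, COL4A5 and COL4A6, known from basement membranes of kidney, eye and ear, had differences of culture 1 from the other cultures between -0.16 and 0.027.

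Among the fibrillar collagens COL1A2 and COL3A1 passed the culture test. COL1A2, the minor chain of type I collagen, read 6.69, 5.96 and 6.38 with DMSO and 6.56, 5.86 and 6.22 with X5050, in the same order of cultures under both treatments. Culture 1 exceeded culture 2 by 0.71 (SE 0.11, 1.64-fold) and culture 3 by 0.33, with adjusted p = 0.0261 in limma. COL3A1, the chain of type III collagen found beside type I in soft tissue and vessel walls, read 6.95, 6.09 and 6.34 with DMSO and 6.64, 5.92 and 6.40 with X5050. Culture 1 was again high and culture 2 low, 0.79 apart (SE 0.12, 1.73-fold, adjusted p = 0.0328 for the culture term in limma).

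COL1A1 and COL5A2 had their highest signals in culture 1 too, but missed the threshold. COL1A1, the major type I chain, read 7.48, 6.60 and 6.82 with DMSO and 7.21, 6.78 and 6.78 with X5050 (adjusted p = 0.0589 for the culture term in limma). COL5A2, of the type V collagen that starts type I fibrils, read 6.78, 6.06 and 6.06 with DMSO and 6.38, 5.80 and 6.04 with X5050 (adjusted p = 0.0537). Both passed where arrays were centred on their medians, with 8 collagen genes in all (3.31% of all rows passed there, beside 2.93% in the main fit). Both culture 1 arrays lay above the other 4 for 5 of the 11 fibrillar genes and for 11 of all 43 collagen genes (25.6%, beside 10.4% of all rows). The reverse, both culture 1 arrays below the rest, was seen for 3 genes, COL4A5, COL9A1 and COL13A1 (8.7% of all rows).

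COL14A1, a FACIT chain that binds fibril surfaces, had another order. It read 8.01, 8.13 and 6.67 with DMSO and 8.24, 8.46 and 7.69 with X5050. Cultures 1 and 2 were close, and both arrays of culture 3 lay below the other 4. Culture 2 exceeded culture 3 by 1.12 (SE 0.18, 2.17-fold) and culture 1 exceeded it by 0.94 (1.92-fold), with adjusted p = 0.0285 for the culture term in limma. COL11A1 was lowest in culture 3 too, 0.59 below culture 1 (SE 0.14), and did not pass (adjusted p = 0.106).

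**Figure D2:**
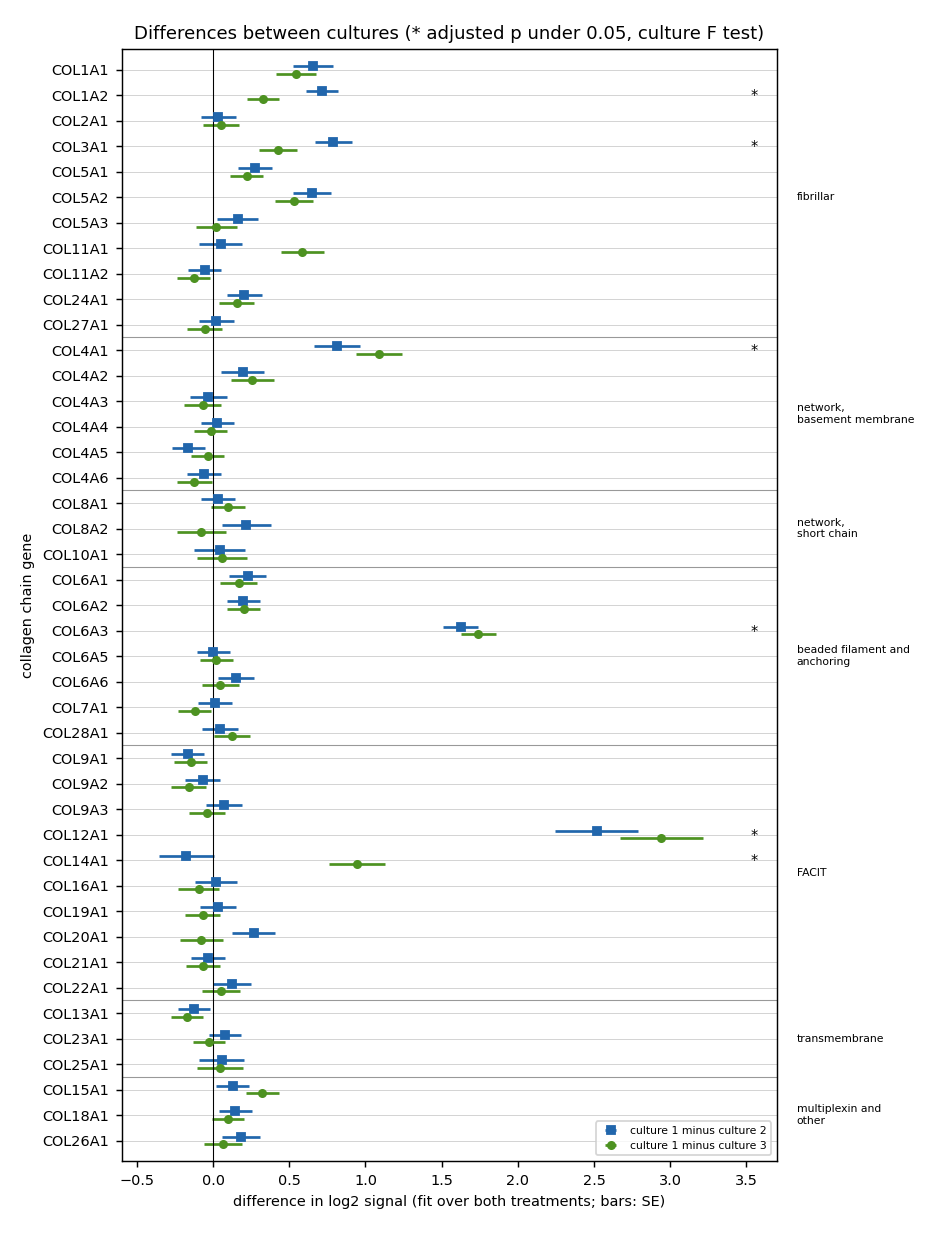
Difference in log2 signal (x axis) of culture 1 from culture 2 (squares) and from culture 3 (circles) for each collagen gene (y axis), from the fit over both treatments, with SE as bars. The 6 starred genes passed the culture test, and COL12A1 lies farthest right at 2.52 and 2.94.

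**Figure D3:**
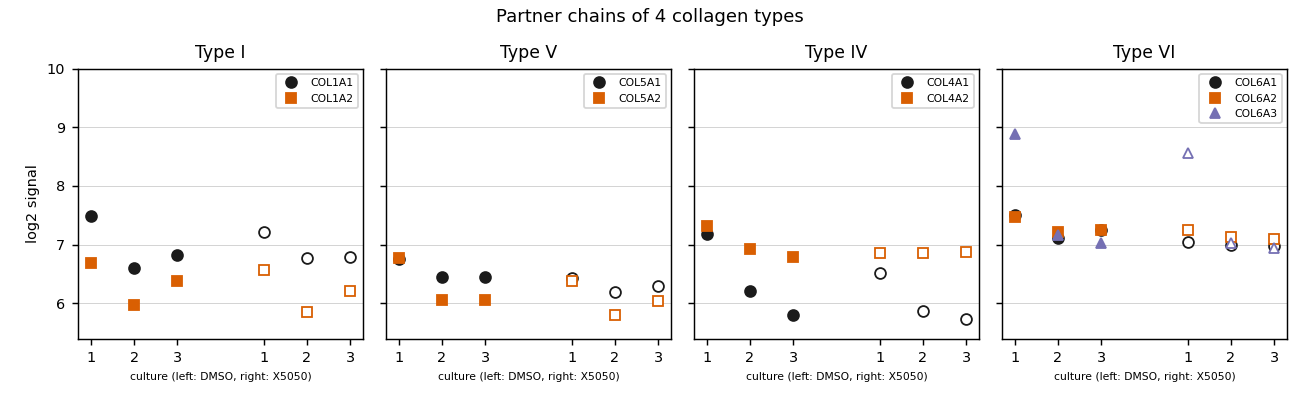
Log2 signal (y axis) of chains of types I, V, IV and VI in each culture (x axis), with filled DMSO points on the left and open X5050 points on the right of each panel. COL6A3 and COL4A1 are high in culture 1 under both treatments, and so is COL6A2 by less, spanning 7.09 to 7.47 over all 6 arrays, while for COL4A2 (6.78 to 7.31) only the DMSO point of culture 1 is apart.

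The high collagen signals of culture 1 stood beside high signals of mesenchymal markers. Of the 11 genes of the mesenchymal list, all measured, 10 had both culture 1 arrays above the other 4 (90.9%, beside 10.4% of all rows). The culture test was passed by 7 of them (63.6%, beside 2.93% of all rows). The mean log2 signal of the list was 8.17, 6.91 and 6.82 with DMSO in cultures 1, 2 and 3, and 7.69, 6.53 and 6.71 with X5050. Its summed linear signal ran from 1811 to 7040 over the DMSO arrays and from 1666 to 4514 over the X5050 arrays, highest in culture 1 under both. PRRX1, a mesenchymal homeobox factor, was 1.65 higher in culture 1 than in culture 2 (SE 0.11) and TAGLN, an actin-binding protein of smooth muscle, 1.91 (SE 0.27). Their part in the collagen differences was not tested, and in bulk RNA fewer cells of a type and less RNA per cell cannot be told apart.

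Markers of other cells were mixed. Of all rows 2.93% passed the culture test, and the counts by list below stand beside that share. The neural crest list had 1 of 6 measured genes past the culture test, SNAI2, at 9.96, 7.64 and 7.15 with DMSO, while SOX10 read 5.58 to 5.67 over the 6 arrays. KDR alone of the 5 endothelial genes passed, 1.57 higher in culture 1 than in culture 2 (SE 0.14), and RGS5 alone of 3 pericyte genes, 1.01 higher (SE 0.14). No neural stem cell gene passed the culture test (PROM1 came nearest, adjusted p = 0.0503 in limma), and the list of 10 had a mean signal between 9.18 and 9.32 in every array. SOX2 read 10.74 to 11.07 and PAX6 10.51 to 10.98. The neuronal genes DCX and ELAVL4 passed with lower signals in culture 1, by 0.35 (SE 0.11) and 1.06 (SE 0.17) against culture 2. S100B passed among 3 astrocyte genes, and both its culture 1 arrays lay above the other 4. It was 1.20 higher in culture 1 than in culture 2 (SE 0.13). No gene passed among 4 cartilage, 2 oligodendrocyte lineage and 1 pluripotent gene.

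**Figure D4:**
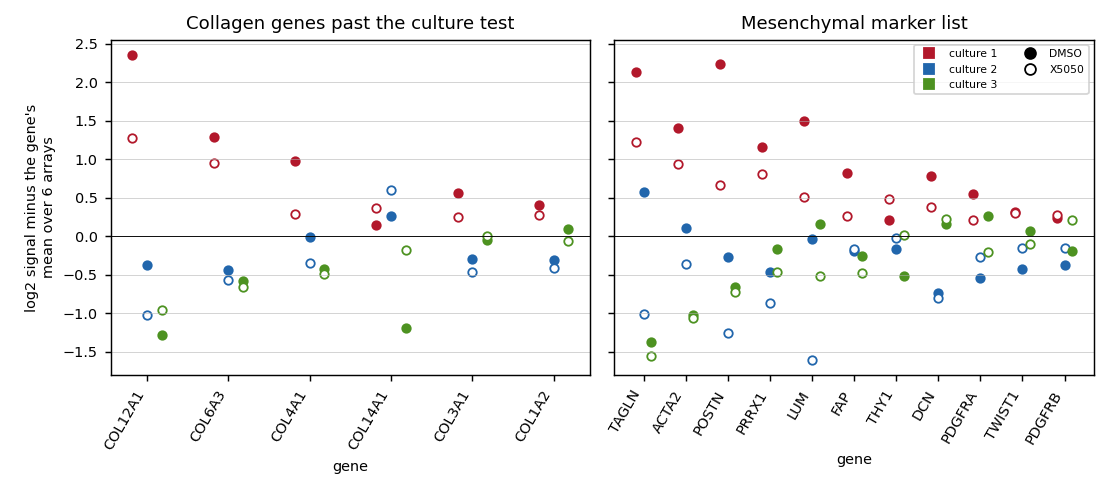
Log2 signal minus the gene mean over the 6 arrays (y axis) for the 6 collagen genes past the culture test (left) and the 11 mesenchymal markers (right), by gene (x axis), with colour for the culture and open points for X5050. Both culture 1 points lie above the other 4 for 5 of the 6 collagen genes and 10 of the 11 markers, the exceptions being COL14A1 and PDGFRA.

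Between treatments the collagen genes were spread around 0. Of the 43 genes 25 were below 0 (58.1%) and 18 above, with a median X5050 minus DMSO difference of -0.013, beside 0.0092 for all rows tested. Of all rows 47.3% were below 0, and the counts by class and list below stand beside that share. The median was -0.13, 0.067 and -0.018 in cultures 1, 2 and 3. The difference was below 0 in all 3 cultures for 11 of the 43 genes (25.6%, beside 17.5% of all rows). It was above 0 in all 3 for 4 genes, COL4A4, COL14A1, COL20A1 and COL21A1 (9.30%, beside 18% of all rows). The 11 below 0 were COL1A2, COL4A1, COL5A1, COL5A2, COL6A1, COL6A2, COL6A3, COL9A1, COL11A1, COL13A1 and COL15A1. All 3 X5050 arrays lay above all 3 DMSO arrays for 3 genes, COL4A4, COL20A1 and COL21A1 (6.98%, beside 7.51% of all rows), and below for 2, COL5A1 and COL6A1 (4.65%, beside 7.41%). At an unadjusted p under 0.05 in limma there were 2 genes without the block, COL11A1 and COL6A1 (9.37% of all rows). The paired fit had 5 (11.6%, beside 14.5% of all rows), COL11A1, COL4A1, COL5A1 and COL6A1 lower and COL14A1 higher. The shares with groups apart or with an unadjusted p under 0.05 thus lay near or below those of all rows.

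Of the 11 fibrillar genes 9 were below 0 (81.8%, beside 47.3% of all rows), with a median of -0.085. The median was 0.012 without the DMSO array of culture 1, and -0.054 in the paired fit without both arrays of culture 1. COL11A1, the type XI chain that takes part in setting fibril width, read 7.23, 7.10 and 6.38 with DMSO and 6.47, 6.50 and 6.15 with X5050. It was lower in all 3 cultures, by 0.77, 0.60 and 0.23, though the DMSO array of culture 3 overlapped the X5050 arrays. The mean difference was -0.53 (1.44-fold lower, paired SE 0.12, 95% interval -0.80 to -0.27 in the paired fit), with adjusted p = 0.516 without the block and 0.0964 with it in limma. COL5A1, a type V chain, read 6.75, 6.44 and 6.44 with DMSO and 6.43, 6.19 and 6.30 with X5050, and its groups did not overlap. Its difference was -0.24 (paired SE 0.090, paired adjusted p = 0.261 in limma). COL5A2 was lower in all 3 cultures and stood at -0.23 (paired SE 0.10, paired adjusted p = 0.355 in limma).

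COL1A1, COL1A2 and COL3A1, whose cultures spread widely, had differences of -0.044, -0.13 and -0.14 (paired SE 0.11, 0.086 and 0.10). COL1A2 was lower in all 3 cultures, by 0.13, 0.10 and 0.16, whereas COL1A1 was higher in culture 2 by 0.17. Their paired 95% intervals were -0.29 to 0.20 for COL1A1, -0.33 to 0.066 for COL1A2 and -0.37 to 0.090 for COL3A1. Other fibrillar chains were COL2A1 of cartilage (-0.085), COL5A3 (-0.019), COL24A1 (0.018), COL27A1 (-0.0051) and COL11A2 (0.036). COL11A2 has 3 rows, and the 2 dimmer ones, identical to each other, gave 0.51 (paired SE 0.16). The mesenchymal list was also below 0 with X5050 for 8 of 11 genes, with a median of -0.25, and LUM, a proteoglycan that binds fibrils, fell by 1.09 (paired SE 0.15, adjusted p = 0.0386 in the paired limma fit, 0.629 without the block). The part of these markers in the fibrillar values was not tested.

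The type IV genes lay 3 of 6 on each side of 0, with a median of -0.026. COL4A1 was lower with X5050 in each culture, by 0.68, 0.33 and 0.064, a mean of -0.36 (1.28-fold lower, paired SE 0.12). Its adjusted p in limma was 0.222 with the block and 0.837 without. COL4A2 stood at -0.15 (paired SE 0.12), lower in cultures 1 and 2 and higher in culture 3. COL4A4 was at 0.10 (paired SE 0.088) with groups that did not overlap, and COL4A3 (0.0083), COL4A5 (0.035) and COL4A6 (-0.060) were nearer 0. Of the short-chain network genes, COL8A1 (0.030) and COL8A2 (0.031) are known from the cornea and COL10A1 (0.050) from growth-plate cartilage. COL10A1 read 4.87, 4.46 and 4.68 with DMSO and 4.59, 4.91 and 4.66 with X5050, which overlapped, and COL8A1 read 3.98, 4.04 and 3.86 with DMSO and 4.06, 3.93 and 3.98 with X5050, which overlapped as well.

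In the class of beaded filaments and anchoring fibrils 5 of 7 genes were below 0, with a median of -0.014. The 3 classical type VI chains each read lower with X5050 in all 3 cultures. COL6A1 read 7.51, 7.11 and 7.25 with DMSO and 7.05, 7.00 and 6.97 with X5050, with no overlap, a difference of -0.28 (1.22-fold lower, paired SE 0.099, adjusted p = 0.506 without the block and 0.231 with it in limma). COL6A2 stood at -0.15 (paired SE 0.088) and COL6A3 at -0.18 (paired SE 0.094). The spread of COL6A3 between cultures made its 95% interval -1.53 to 1.17 without the block and -0.40 to 0.034 with it. COL6A5 (0.023), COL6A6 (0.074), COL7A1 (-0.010) and COL28A1 (-0.014) were close to 0.

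Of the 10 FACIT genes 7 were above 0, with a median of 0.060, and the class held the widest spread. COL14A1 was higher with X5050 in all 3 cultures, by 0.23, 0.33 and 1.02, a mean of 0.53 (1.44-fold, paired SE 0.15, 95% interval 0.18 to 0.87 in the paired fit). Its adjusted p in limma was 0.768 without the block and 0.159 with it. With culture 1 left out of the paired fit COL14A1 passed at 0.68 (adjusted p = 0.0464 in limma). The share of all rows that passed in that fit is not given here. Without the DMSO array of culture 3, whose X5050 array stayed in, the unpaired difference of COL14A1 was 0.061. COL12A1 differed in sign between cultures, with -1.08, -0.65 and 0.32 in cultures 1, 2 and 3 (mean -0.47, paired SE 0.22, paired adjusted p = 0.384 in limma). Whether a response differed between cultures could not be tested, since each culture had 1 array per treatment. Leaving out only the DMSO array of culture 1 keeps culture 1 among the X5050 arrays, so that differences between cultures enter the unpaired difference. Without that array the unpaired difference turned from below to above 0 for 14 of the 43 collagen genes. They were COL5A3, COL18A1, COL23A1, COL27A1 and COL28A1, and COL12A1 (0.59), COL6A3 (0.42), COL1A1 (0.21), COL3A1 (0.10), COL4A1 (0.038), COL1A2 (0.041), COL5A2 (0.012), COL4A2 (0.0029) and COL25A1 (0.043). Among them COL1A2, COL4A1, COL5A2 and COL6A3 were lower than their DMSO partner in all 3 cultures.

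COL20A1 read 6.15, 5.63 and 6.17 with DMSO and 6.19, 6.18 and 6.33 with X5050, and its 3 X5050 arrays lay just above the DMSO arrays. Its difference was 0.25 (paired SE 0.11, paired adjusted p = 0.366 in limma), and 0.074 without the low DMSO array of culture 2. COL21A1 (0.11) and COL19A1 (0.090) were above 0. The chains of type IX collagen, COL9A1, COL9A2 and COL9A3, which join in one molecule on cartilage fibrils, stood at -0.12, 0.12 and -0.053, with SEs of 0.088 to 0.095. COL16A1 (0.031) and COL22A1 (0.025), the latter known from the junction of muscle and tendon, were close to 0.

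All 3 measured transmembrane collagens were below 0, by little. COL13A1, found at the neuromuscular junction, read 6.04, 6.16 and 6.21 with DMSO and 5.99, 6.12 and 6.17 with X5050. The groups overlapped, and each X5050 array lay below its DMSO partner, by 0.043, 0.039 and 0.036. Its paired 95% interval was -0.24 to 0.16. COL25A1, whose outer part occurs in amyloid plaques, read 5.19, 4.83 and 4.97 with DMSO and 4.82, 5.06 and 4.94 with X5050, again with overlap, and stood at -0.053 (paired SE 0.12). COL23A1 stood at -0.013. Of the multiplexins, which line basement membranes, COL15A1 read 5.46, 5.27 and 5.14 with DMSO and 5.29, 5.22 and 4.96 with X5050, a difference of -0.14 (paired SE 0.088) that was below 0 in all 3 cultures. COL18A1, whose tail yields endostatin, stood at -0.0061. COL26A1 read 6.54, 6.17 and 6.34 with DMSO and 6.36, 6.37 and 6.43 with X5050, which overlapped, at 0.040 (paired SE 0.10).

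**Figure D5:**
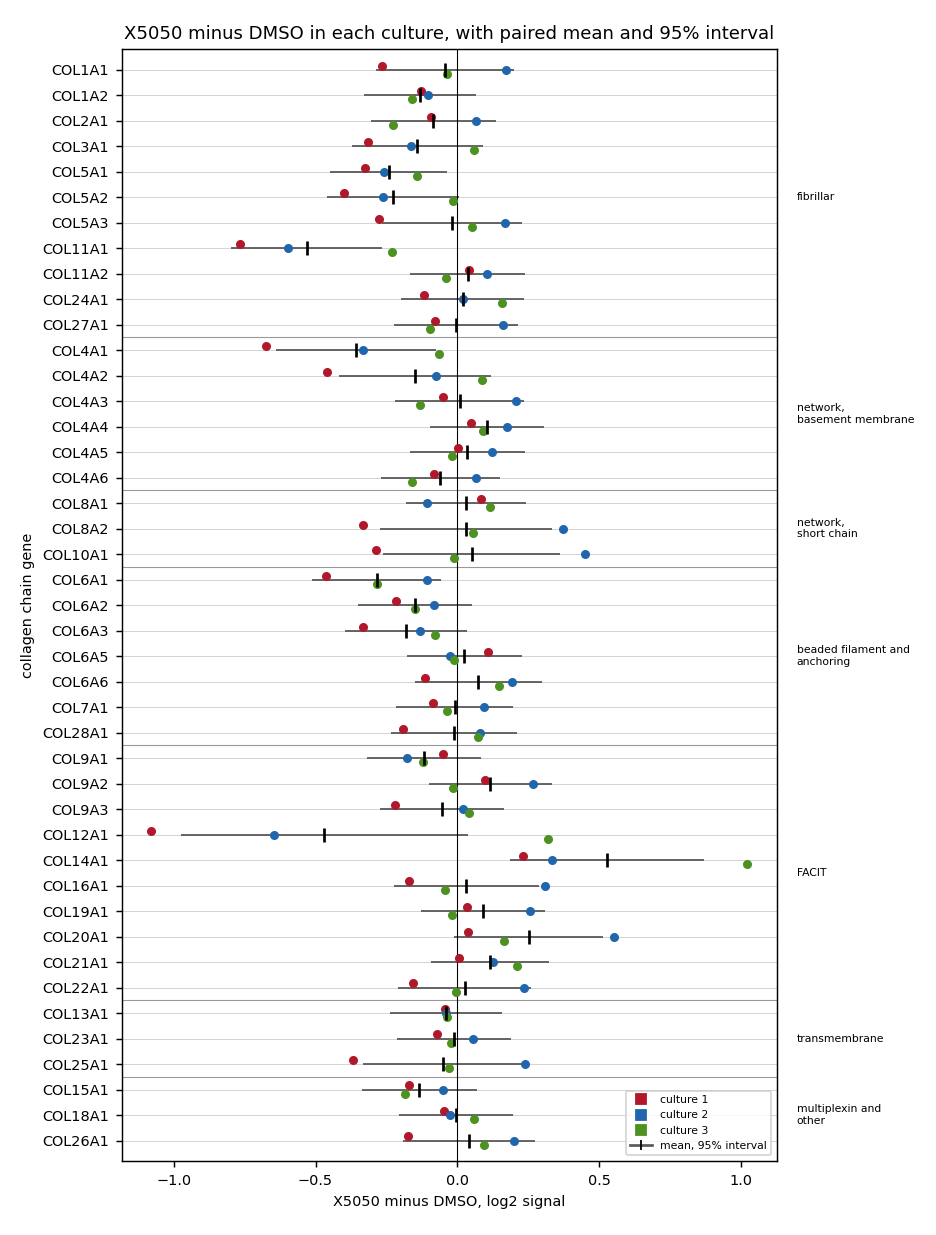
X5050 minus DMSO difference in log2 signal (x axis) in each culture (coloured points) for the 43 collagen genes (y axis, by class), with the mean (tick) and its 95% interval from the paired fit (line). The intervals of COL11A1, COL4A1, COL5A1 and COL6A1 lie below 0 and that of COL14A1 above it before adjustment, and 0 of the 43 passed after it.

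Of 76 genes that make, process, bind or degrade collagen or sit beside it in the basement membrane, 72 were measured. Each is given by its row with the highest mean over the 6 arrays. Their cultures differed as well, with 19 past the culture test (26.4%, beside 2.93% of all rows) and 34 with both culture 1 arrays above the other 4 (47.2%, beside 10.4%). Between treatments 0 of the 72 passed in limma when unpaired, and 7 had an unadjusted p under 0.05, as did 9.37% of all rows. In the paired fit 15 had an unadjusted p under 0.05 (20.8%, beside 14.5% of all rows). After adjustment 1 passed in the paired fit, with a rise (0.498% of all rows passed). That gene was ADAMTS3, of the protease family that trims the amino-terminal propeptide of fibrillar procollagens, at 8.39, 8.10 and 8.33 with DMSO and 9.39, 8.55 and 9.02 with X5050, without overlap. It was 1.64-fold higher with X5050 (0.71, paired SE 0.12, adjusted p = 0.0488 in the paired limma fit and 0.366 without the block). It no longer passed without culture 3 in the paired fit, or with arrays centred or quantile normalised there.

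Among the 22 measured chaperones and modifying enzymes 11 were below 0 and 11 above (median 0.0042), and 5 passed the culture test, CREB3L1, P3H2, P4HA2, PLOD2 and PLOD3. P3H2, a prolyl 3-hydroxylase of basement membrane collagen, read 8.34, 6.37 and 6.18 with DMSO and 7.05, 5.75 and 5.98 with X5050, high in culture 1 under both treatments. Its treatment difference was -0.71 (paired SE 0.18, paired adjusted p = 0.124 in limma). The cyclophilin PPIB stood at -0.42 (paired SE 0.094, paired adjusted p = 0.0985 in limma). The galactosyltransferase COLGALT1 was at -0.35 (paired SE 0.087) and the lysyl hydroxylase PLOD3 at -0.31 (paired SE 0.089).

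In the processing and crosslinking list 5 of 13 genes were below 0 and 8 above (median 0.026), and LOX, LOXL2 and TLL2 passed the culture test. LOX, the lysyl oxidase that starts crosslinking, read 8.86, 6.22 and 5.89 with DMSO and 8.03, 6.12 and 6.23 with X5050, and was 2.28 higher in culture 1 than in culture 2 (SE 0.23, adjusted p = 0.00273 for the culture term in limma). Its treatment difference was -0.20 (paired SE 0.19). Apart from ADAMTS3 the smallest paired p belonged to PCOLCE2, an enhancer of procollagen processing, at 0.34 (paired SE 0.12), to LOXL2 at -0.23 (paired SE 0.087) and to the protease TLL1 at -0.17 (paired SE 0.10).

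Of 15 turnover genes 11 were below 0 (median -0.059), and FAP, MMP14, MMP2, TIMP2 and TIMP3 passed the culture test. FAP stands in the mesenchymal list too. The gelatinase MMP2 read 8.96, 7.66 and 7.87 with DMSO and 8.68, 7.37 and 7.63 with X5050, below its DMSO partner in each culture by 0.27, 0.30 and 0.24 (paired SE 0.086, paired adjusted p = 0.195 in limma). The inhibitor TIMP3 stood at -0.25 (paired SE 0.098), the protease FAP at -0.25 (paired SE 0.12) and the collagenase MMP13 at -0.16 (paired SE 0.088). MMP13 was dim, at 3.60 to 3.93, below the lower quartile of each array (4.05 to 4.21). Of 9 measured receptors 4 were below 0 (median 0.087), and DDR2 and ITGA11 passed the culture test. DDR2, a receptor tyrosine kinase for fibrillar collagen, has 2 rows. The brighter one read 7.76, 5.93 and 5.68 with DMSO and 7.92, 4.84 and 5.83 with X5050. With its low X5050 array in culture 2, DDR2 was 2.46 higher in culture 1 than in culture 2 (SE 0.27). The integrin ITGA11, a receptor for type I collagen, was 1.06 higher (SE 0.20) and stood at -0.54 with X5050 (paired SE 0.17, paired adjusted p = 0.184 in limma). DDR1 (-0.19), GP6 (0.14) and ITGA10 (0.14) came next by p.

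Of 13 measured basement membrane partners 7 were below 0 (median -0.012), and 4 passed the culture test, the laminin chains LAMA2, LAMB1 and LAMC1 and the linker NID1. LAMC1 read 10.01, 9.22 and 8.62 with DMSO and 9.97, 9.09 and 9.00 with X5050, in the same order of cultures as COL4A1. NID2 stood at -0.37 with X5050 (paired SE 0.11, paired adjusted p = 0.177 in limma), LAMA2 at 0.16 (paired SE 0.089), AGRN at -0.14 (paired SE 0.087) and NID1 at -0.13 (paired SE 0.10). In this list 0 passed between treatments in either limma fit, and 1 had an unadjusted p under 0.05 in the paired fit (7.69%, beside 14.5% of all rows).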

How the data were processed

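Biotinylated cDNA from 100 ng of total RNA was hybridised to 1 Affymetrix array per sample, per the labels' protocols. The authors deposited 1 log2 signal for each probe set, obtained with RMA and Partek per the submitters' processing notes. No source used here gives the settings or genome build. RMA compresses changes of dim probe sets. Array medians lay between 5.68 and 5.75.

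Of 33297 rows 19460 carry 1 symbol in the platform annotation and were tested. All 43 collagen genes matched RefSeq by Entrez identifier, with 0 symbols changed. The treatments were compared in limma 3.58.1 (R 4.3.3; lmFit and eBayes, two-sided, Benjamini-Hochberg over 19460 rows, adjusted p under 0.05), with treatment alone and with the replicate number as a block. Culture differences are the moderated F test of the replicate number beside treatment, with 2 residual degrees of freedom.

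The design text gives each culture both treatments. After subtracting group means, DMSO and X5050 arrays with 1 number correlated at 0.365, 0.297 and 0.255, and those with unlike numbers at -0.236 to -0.052. Deviations from a mean of 3 arrays sum to 0, so that values below 0 are partly built in. With the design text, the numbers were read as pairs. Alternatives were quantile normalization, centring, leaving out dim rows, averaging rows of a symbol, eBayes with trend and robust settings, and leaving out arrays or cultures. The collagen genes, classes and lists were chosen with earlier results of these data known.

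Every collagen gene is named, with values in every array where it passed an X5050 test, had one of the smallest paired p in its class (3 genes in classes of 8 or more, 2 in smaller ones) or one of the 8 largest DMSO ranges. From each list of other genes those past an X5050 test, otherwise the 4 with the smallest paired p, are named; LOX, DDR2, LAMC1 and the markers named were chosen after their values were seen. On simulated data 200 of 19460 rows were changed by 1.0 on the log2 scale. That is more than any collagen gene changed with X5050 (-0.53 to 0.53). The fit without the block recovered 77.0% and the paired fit 99.0%. Of culture differences of 1.5 the F test recovered 98.5%, on values without the real culture differences. In that order 0%, 3.88% and 6.19% of the calls were false. Spreads were drawn from the fitted prior, and smaller changes were not simulated. Figures were made in matplotlib 3.10.9 (Python 3.11.15).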

Additional observations from a re-analysis of the deposited data

Results flagged for a closer look

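The 2 dimmer rows of COL11A2, identical to each other and not used for the gene, read 5.35, 4.69 and 5.10 with DMSO and 5.50, 5.71 and 5.47 with X5050. All X5050 values lay above all DMSO values, and the difference was 0.51 (paired SE 0.16, adjusted p = 0.440 without the block and 0.181 with it in limma). The brightest row, which stands for the gene, gave 0.036.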

How the results depend on the processing

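The count of collagen genes past the X5050 test was 0 under every alternative run, the replicate block alone or with quantile normalization, centring, dim rows left out, rows averaged or eBayes trend and robust included, except that COL14A1 passed without culture 1 in the paired fit (range 0 to 1 with arrays or cultures left out). The replicate block changed no other collagen call. Culture calls numbered 6 to 8 under other processing, where 2.66% to 3.78% of all rows passed. They numbered 1 without culture 1, 5 without culture 2 and 5 without culture 3 (1 to 5). In these 1.36%, 3.54% and 1.64% of all rows passed. Among the collagen-handling genes 1 (ADAMTS3) passed with the replicate block, and also 1 with dim rows left out or rows averaged, 2 (with PPIB) with trend and robust settings, 0 with quantile normalization or centring, and 0 to 1 with arrays or cultures left out. The beaded filament class median moved to -0.15 with dim rows left out, which removed genes from the class. With arrays or cultures left out the median over all collagen genes ranged from -0.090 to 0.041, and each class median also spanned 0. The fibrillar median was above 0 only without the DMSO array of culture 1 (0.012), in an unpaired fit. In the paired fit without culture 1, 2 or 3 it was -0.054, -0.14 and -0.055. Over all collagen genes the median was 0.031 in the paired fit without culture 1. Over all 43 collagen genes the unpaired difference changed sign for 26 when some 1 array was left out. Signs in the paired fits without a culture were examined only for the 19 genes given with values in every array. Of these 13 changed sign with an array or culture left out, and their differences ranged over -1.23 to 0.59 for COL12A1, -0.70 to 0.42 for COL6A3, -0.66 to 0.038 for COL4A1, -0.27 to 0.0051 for COL4A2, -0.23 to 0.21 for COL1A1, -0.32 to 0.045 for COL1A2, -0.33 to 0.10 for COL3A1, -0.38 to 0.012 for COL5A2, -0.15 to 0.22 for COL10A1, -0.018 to 0.099 for COL8A1, -0.089 to 0.011 for COL13A1, -0.20 to 0.10 for COL25A1 and -0.050 to 0.15 for COL26A1. These ranges pool paired fits with unpaired fits in which 1 culture stayed under 1 treatment only, so that differences between cultures enter the latter. COL1A2, COL4A1, COL5A2, COL6A3 and COL13A1 were below 0 in all 3 cultures and turned only in unpaired fits. For the other genes the cause was not tested. With 3 cultures the precision is limited, and a small difference in a dim probe set such as that of COL6A5 puts no bound on a change.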
